A study of Mus musculus with 8 samples.

Results

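Where the histone mark H3K27-me3 lay at the collagen genes of fasted mouse liver was examined in lists of enriched regions obtained by ChIP-seq, with and without downregulation of JMJD3 in hepatocytes. Collagen genes were the protein-coding genes of chromosomes 1 to 19 named Col, a number, a and a number. They were 42 of 20720 protein-coding genes, of which 11 encode fibrillar chains, 4 chains of type IV collagen of basement membranes, and 27 chains of other types. All mice were male JMJD3-floxed C57BL/6 mice, injected at 8 weeks of age and fasted over 16 h when 12 weeks had passed. One group received AAV-TBG-Cre, in which the TBG promoter drives Cre in hepatocytes, and the control group, which carried the same floxed allele, received AAV-GFP. The labels name primary liver cells and the protocol minced liver, so cells other than hepatocytes were present and were not targeted by the promoter. Each group had 2 libraries of H3K27-me3 and 2 of input DNA, but only 1 list of regions per group, made from both replicates, was deposited. The lists therefore hold no value per mouse. No difference between AAV-Cre and AAV-GFP could be tested, and every difference below is that of a call being present or absent in these lists.

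Collagens are triple-helical proteins of the extracellular matrix. Fibrillar types give tissue its tensile strength, type IV forms the sheet of basement membranes, and other types decorate fibrils, form filaments or cross the cell membrane. In liver, most fibrillar collagen is made by stellate cells and portal fibroblasts, and its build-up is the scar of fibrosis. H3K27-me3 is laid down by Polycomb repressive complex 2, marks genes that are held silent, often at CpG-rich start sites, and is removed by JMJD3 and UTX.

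Promoter sequences are shown first, because CpG content differed between collagen genes with and without a region at the start site. The sequences come from RefSeq (GRCm38.p6, the build mm10), whose promoter table held 33 of the 42 genes, all but Col26a1, Col9a3, Col2a1, Col14a1, Col4a3, Col1a1, Col12a1, Col5a2 and Col22a1. Each shows up to 250 bases before the start site, cut where an annotated exon begins, and CpG dinucleotides are in capitals. The positions are Col8a2 at chr4:126286544-126286792 (plus strand), Col5a1 at chr2:27886175-27886424 (plus strand), Col1a2 at chr6:4505368-4505492 (plus strand), Col6a5 at chr9:105960644-105960893 (minus strand), Col3a1 at chr1:45311288-45311537 (plus strand) and Col28a1 at chr6:8192618-8192867 (minus strand). Col8a2 and Col5a1 are examples of genes with a region in both lists, and their sequences lay wholly inside a region of each.
Col8a2: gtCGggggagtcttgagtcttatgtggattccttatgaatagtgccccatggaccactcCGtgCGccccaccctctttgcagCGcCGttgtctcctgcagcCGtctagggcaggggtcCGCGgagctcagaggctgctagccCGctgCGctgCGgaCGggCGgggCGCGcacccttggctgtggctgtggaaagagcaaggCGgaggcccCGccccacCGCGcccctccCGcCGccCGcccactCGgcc
Col5a1: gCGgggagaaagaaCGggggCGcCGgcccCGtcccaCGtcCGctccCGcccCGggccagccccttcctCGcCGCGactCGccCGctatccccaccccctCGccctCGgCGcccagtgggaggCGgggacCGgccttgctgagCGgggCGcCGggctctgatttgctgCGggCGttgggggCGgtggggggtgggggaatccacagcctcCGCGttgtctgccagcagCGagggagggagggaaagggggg
Col1a2 and Col6a5 had all printed bases inside an AAV-Cre region and 0 inside an AAV-GFP region.
Col1a2: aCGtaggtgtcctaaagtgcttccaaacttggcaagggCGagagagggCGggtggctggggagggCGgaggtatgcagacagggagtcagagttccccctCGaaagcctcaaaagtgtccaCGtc
Col6a5: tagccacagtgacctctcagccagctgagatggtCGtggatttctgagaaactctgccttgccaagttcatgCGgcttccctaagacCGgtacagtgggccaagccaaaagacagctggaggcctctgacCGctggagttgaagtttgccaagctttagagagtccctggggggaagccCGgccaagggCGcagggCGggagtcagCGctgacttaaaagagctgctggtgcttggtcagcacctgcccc
Col3a1 and Col28a1 lay far from any region of either list.
Col3a1: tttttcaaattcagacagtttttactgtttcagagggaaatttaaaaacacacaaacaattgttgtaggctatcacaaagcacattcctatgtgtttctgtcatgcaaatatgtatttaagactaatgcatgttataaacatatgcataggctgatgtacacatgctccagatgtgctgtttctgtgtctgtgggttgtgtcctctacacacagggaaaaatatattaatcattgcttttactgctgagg
Col28a1: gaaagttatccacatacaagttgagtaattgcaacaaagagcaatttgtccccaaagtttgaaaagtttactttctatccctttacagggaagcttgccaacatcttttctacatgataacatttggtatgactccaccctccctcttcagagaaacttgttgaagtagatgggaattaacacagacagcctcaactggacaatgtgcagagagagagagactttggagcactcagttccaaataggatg
The printed sequences held 23 CpG in Col8a2, 28 in Col5a1, 6 in the 125 bases of Col1a2, 8 in Col6a5, 0 in Col3a1 and 0 in Col28a1. Over all 19167 promoters of the table, cut to the 250 bases before the start site, the median was 11, and over the 36 promoters of the 33 collagen genes it was 9.50.

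The lists themselves differed in size. On chromosomes 1 to 19, AAV-Cre held 58951 regions with a median width of 753 bp and AAV-GFP 34307 regions with a median width of 231 bp. The lower quartile of width was 493 bp in AAV-Cre and 160 bp in AAV-GFP. Leaving out regions below 300 bp changed no count of genes within 1 kb in AAV-Cre (5107) but lowered that in AAV-GFP from 3549 to 2891. Widths and covered sequence are therefore not on 1 scale between the lists. The q-value within the list was at most 0.05 for 88.5% of the former and 46.8% of the latter. The files hold no read counts, so the depth behind a call is unknown, and a call missing from AAV-GFP does not show that the mark was absent. What part depth, input or peak calling had in the counts, widths and covered sequence below was not tested. In bulk liver, fewer cells with the mark and less mark per cell cannot be told apart.

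Collagen genes were marked at their start sites more often than genes at large in both lists. In AAV-Cre, 34 of the 42 genes (81.0%) had a region at most 1 kb from a start site, against 24.6% of all protein-coding genes. In AAV-GFP, 26 genes (61.9%) did, against 17.1% of all genes. All 26 were also called in AAV-Cre. A region only in AAV-Cre was found at 8 collagen genes (all genes 7.81%), namely Col11a2, Col17a1, Col19a1, Col22a1, Col6a4, Col6a5, Col6a6 and Col9a3, and a region only in AAV-GFP at 0 (all genes 0.294%). The other 8 genes, Col10a1, Col20a1, Col28a1, Col3a1, Col5a2, Col6a1, Col6a3 and Col9a1, had none within 1 kb in either list.

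The wider window added few collagen genes. Within 15 kb of a start site, 38 genes (90.5%) had a region in AAV-Cre and 29 (69.0%) in AAV-GFP, against 43.1% and 29.0% of all genes. For each of these 38 and 29 genes, at least 1 such region was closer to the collagen gene than to any other protein-coding gene. Only AAV-Cre marked 9 genes (21.4%, all genes 15.3%) and only AAV-GFP 0 (all genes 1.25%). The share found only in AAV-Cre was thus nearer to that of all genes at 15 kb than at 1 kb. The 4 genes without a region in either list were Col10a1, Col28a1, Col3a1 and Col5a2.

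**Figure D1:**
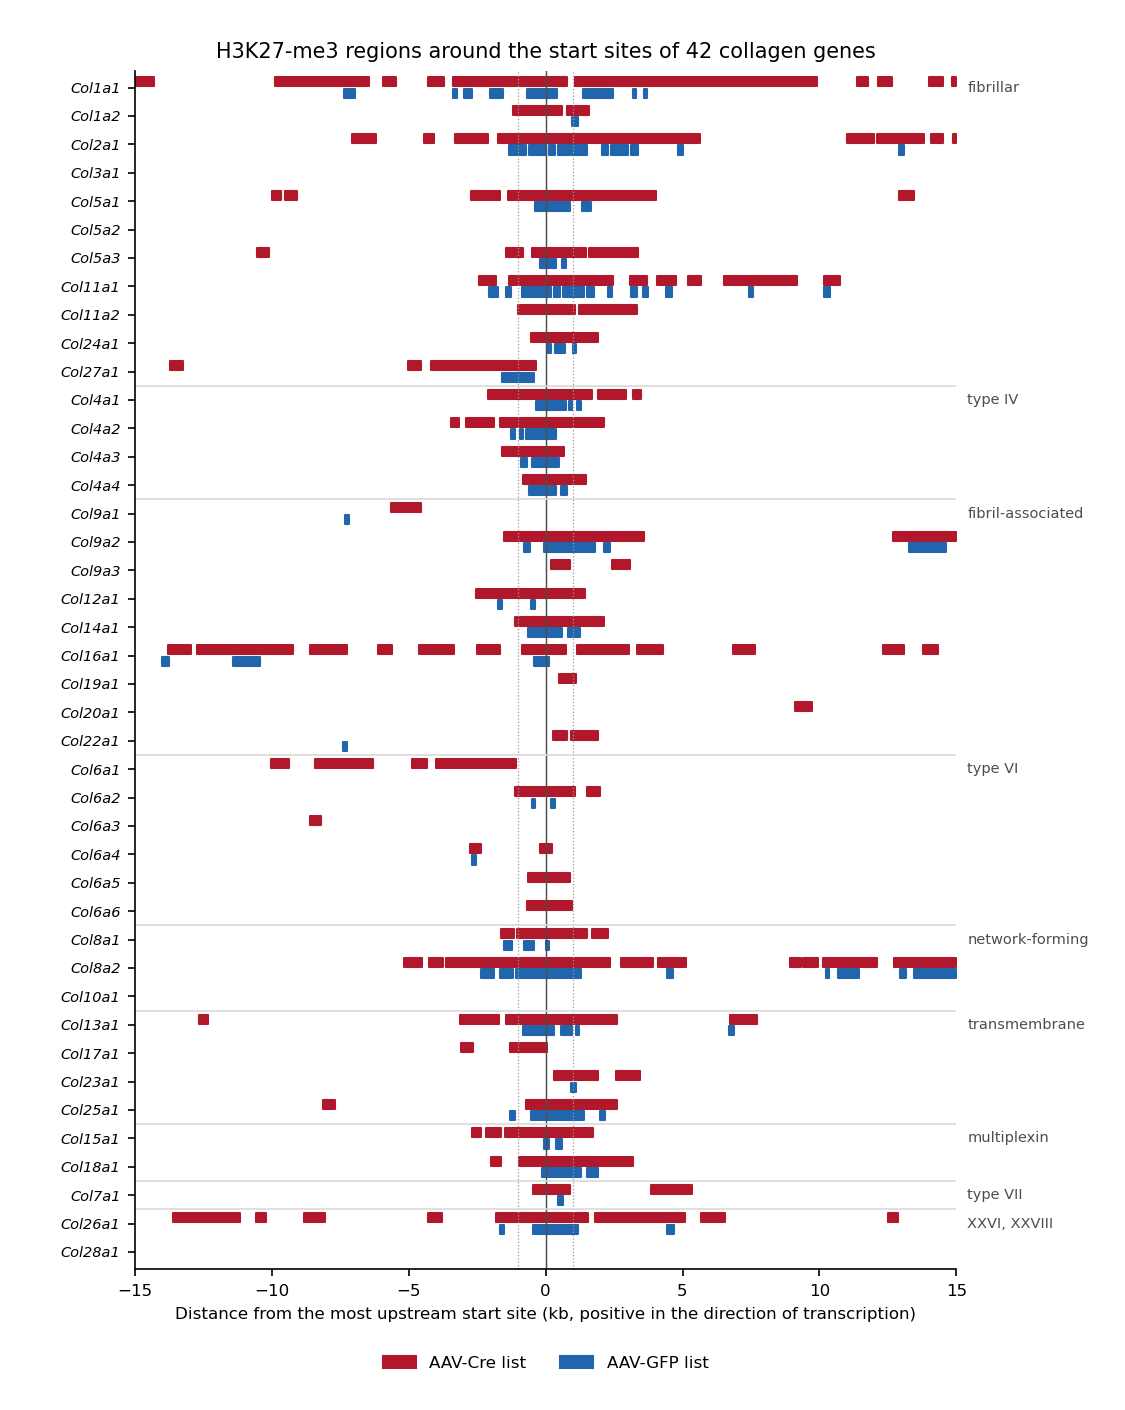
Regions of the AAV-Cre list (red, upper bar) and the AAV-GFP list (blue, lower bar) within 15 kb of the most upstream start site of each of the 42 collagen genes, in kb and in the direction of transcription. Dotted lines mark 1 kb on either side. The bars gather around 0, the regions within 1 kb of a start site are 2246 bp wide at the median in red and 454 bp in blue, and the rows of Col3a1, Col5a2, Col10a1 and Col28a1 are empty.

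Class by class, the type IV genes were called without exception. At 1 kb, 9 of 11 fibrillar genes (81.8%) were marked in AAV-Cre and 8 (72.7%) in AAV-GFP, 4 of 4 type IV genes in each list, and 21 (77.8%) and 14 (51.9%) of the 27 genes of other types. The 4 type IV genes are 2 head-to-head pairs that share their regions, so they amount to 2 places in the genome. At 15 kb the counts were 9 and 8 for fibrillar, 4 and 4 for type IV, and 25 and 17 for other types. The shares of all genes in AAV-Cre and AAV-GFP were 24.6% and 17.1% at 1 kb, and 43.1% and 29.0% at 15 kb. Of the 8 genes called only in AAV-Cre at 1 kb, 1 was fibrillar and 7 were of other types. With so few genes per class and no replicates, the classes were not tested against each other.

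**Figure D2:**
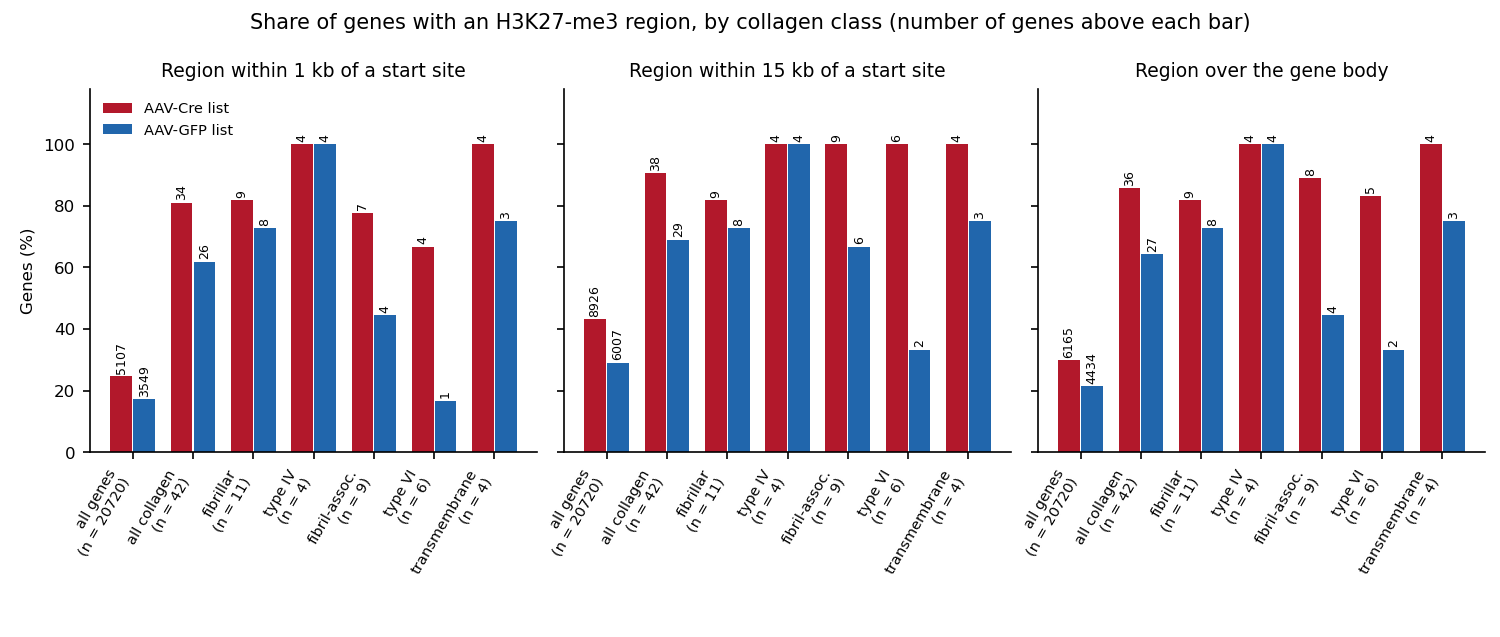
Percent of genes with an H3K27-me3 region within 1 kb of a start site, within 15 kb, and over the gene body, in the AAV-Cre (red) and AAV-GFP (blue) lists, with the number of genes above each bar. Network-forming, multiplexin and single types are left out. The bars nearest to those of all 20720 genes are those of type VI in AAV-GFP (16.7%, 33.3% and 33.3%).

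Fibrillar chains are described first, beginning with type I, the main collagen of scar. At Col1a1 (ENSMUSG00000001506.10, chromosome 11, 94936224 to 94953042, plus strand), an AAV-Cre region of 4191 bp (94932827 to 94937017) covered the start site with a fold enrichment of 8.26 over input and a −log10 p of 31.9. Next to it, an AAV-Cre region of 8817 bp (94937312 to 94946128, fold 8.11) ran over exons and introns of the gene. In AAV-GFP the start site lay in a region of 1097 bp (94935561 to 94936657) with a fold of 5.08 and a −log10 p of 14.0. Folds and p-values were taken from the deposited lists and describe a region within its own list, not a level to be set against the other list. Within 15 kb of the start site there were 10 AAV-Cre and 8 AAV-GFP regions, and the closest other gene, Hils1, was 30576 bp from the start-site region. Col1a1 was therefore marked in both lists, along more of its length in AAV-Cre.

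The partner chain Col1a2 (ENSMUSG00000029661.16, chromosome 6, 4504814 to 4541544, plus strand) differed from it. In AAV-Cre a region of 1758 bp (4504319 to 4506076, fold 5.52, −log10 p of 16.3) covered the start site and all printed bases of its promoter. In AAV-GFP the only region within 15 kb was 220 bp wide and intronic, lay 950 bp from the start site, and had a q-value of 0.18. The call of Col1a2 in AAV-GFP thus rests on a weak region near the edge of the window and did not hold when the q-value had to be at most 0.05.

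Col3a1, which encodes the chain of type III collagen, and Col5a2 of type V lie side by side on chromosome 1 and had no region nearby. The nearest AAV-Cre region was 455979 bp from the start site of Col3a1 (ENSMUSG00000026043.18, 45311538 to 45349706, plus strand) and 264235 bp from that of Col5a2. In AAV-GFP these distances were 756240 and 564496 bp. Both genes share the same nearest region in each list. Chains of the same heterotrimer could thus differ, since Col5a1, the partner of Col5a2, had 1 of the strongest start-site regions among fibrillar genes (5384 bp, fold 8.50, −log10 p of 36.8 in AAV-Cre, and 1284 bp, fold 3.90, −log10 p of 11.8 in AAV-GFP).

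Among the remaining fibrillar genes, those of cartilage were marked in both lists or in AAV-Cre. Col27a1 carried the strongest start-site region of the class in AAV-Cre (3818 bp, fold 11.8, −log10 p of 54.5), and its AAV-GFP region of 1150 bp had a −log10 p of 14.1. Col11a1 of type XI was covered at the start site by 3805 bp in AAV-Cre (−log10 p of 35.0), and its strongest AAV-GFP region lay in an intron 632 bp away (−log10 p of 13.4). At Col2a1, the chain of type II, 1 AAV-Cre region of 7410 bp (−log10 p of 26.3) took the place of 4 AAV-GFP regions of 218 to 1046 bp within 1 kb, of which the strongest had a −log10 p of 10.7. A single wide call in AAV-Cre here corresponded to several short calls in AAV-GFP. Col5a3 and Col24a1 were also called in both lists, with AAV-Cre regions of 1989 and 2452 bp at the start site. Col11a2 on chromosome 17 was the fibrillar gene called only in AAV-Cre, where a region of 2082 bp (fold 5.04, −log10 p of 13.9) covered the start site, while AAV-GFP had none nearer than 36134 bp.

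Type IV genes form the network of basement membranes. Col4a1 (ENSMUSG00000031502.11, chromosome 8, 11198423 to 11312826, minus strand) and Col4a2 (ENSMUSG00000031503.13, 11312805 to 11449287, plus strand) overlap at their first bases and are transcribed away from each other. An AAV-Cre region of 3813 bp (11311125 to 11314937, fold 8.83, −log10 p of 35.0) covered both start sites. The AAV-GFP region of 1087 bp (11312087 to 11313173, fold 5.26, −log10 p of 15.6) lay inside it and also covered both. Each pair of genes thus shared 1 marked stretch. At Col4a3 and Col4a4, the chains known from kidney glomeruli, the shared AAV-Cre region was 2286 bp wide with a −log10 p of 18.0, and the AAV-GFP regions reached a −log10 p of 5.12. When Col15a1 and Col18a1, which lie in the basement membrane zone, were added, all 6 genes were called in both lists at 1 kb and at 15 kb. Col18a1, the precursor of endostatin, had an AAV-Cre region of 4170 bp and an AAV-GFP region of 1443 bp over a start site. At Col15a1 the AAV-Cre region was 3228 bp wide, but the AAV-GFP regions were 198 and 213 bp wide and failed a q-value of 0.05.

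Type VI collagen, which forms beaded filaments, had 4 of its 6 genes called only in AAV-Cre at 15 kb. Of all genes, 15.3% were called only in AAV-Cre at 15 kb. Within this window, 6 of 6 type VI genes were marked in AAV-Cre and 2 in AAV-GFP, against 43.1% and 29.0% of all genes. Within 1 kb it was 4 and 1, against 24.6% and 17.1%. The type VI shares in AAV-GFP, 33.3% and 16.7%, were thus close to those of all genes. Col6a2 was the gene marked in both lists at 1 kb, by an AAV-Cre region of 2207 bp and AAV-GFP regions of 145 and 127 bp. Col6a5 and Col6a6, chains that can replace the alpha 3 chain, had AAV-Cre regions of 1563 bp (fold 5.87, −log10 p of 18.0) and 1636 bp (fold 6.08, −log10 p of 18.9) over their start sites. Their nearest AAV-GFP region was the same one, 16295 bp from a start site of Col6a5 and 148778 bp from Col6a6, so that Col6a5 lies just outside the window. Col6a4, their neighbour on chromosome 9, had an AAV-Cre region of 442 bp over the start site, and an AAV-GFP region of 131 bp at 2542 bp with a q-value of 0.43.

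The classical chains Col6a1 and Col6a3 were called only at the wider window. At Col6a1 an AAV-Cre region of 2942 bp (fold 4.08, q-value of 7.9e-08) ended 1079 bp upstream of the start site, just outside the window of 1 kb, and was the closest of 4 regions. In AAV-GFP the nearest one lay at Col6a2, 102024 bp away. At Col6a3 the call rests on 1 AAV-Cre region of 407 bp, 8197 bp upstream, with a q-value of 0.057. Over the body of Col6a3, 1 region covered 663 bp in AAV-Cre and 1 covered 160 bp in AAV-GFP. The class therefore holds calls of very unequal strength. At Col6a1, Col6a3, Col6a5 and Col6a6 the nearest AAV-Cre region was closer to the collagen gene than to any other gene.

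Fibril-associated collagens sit on the surface of fibrils. At 1 kb, 7 of the 9 genes were marked in AAV-Cre and 4 in AAV-GFP, against 24.6% and 17.1% of all genes. At 15 kb it was 9 and 6, against 43.1% and 29.0%. Col14a1 had 1 of the strongest start-site regions in both lists, of 3223 bp (fold 11.2, −log10 p of 51.1) in AAV-Cre and 1227 bp (fold 6.07, −log10 p of 18.4) in AAV-GFP. Col9a2, a chain of type IX of cartilage, was similar, with 5112 bp (fold 11.6, −log10 p of 53.4) and 1899 bp (fold 4.34, −log10 p of 13.3). The partner chains of type IX did not share this pattern. Col9a3 had a region of 670 bp at the start site in AAV-Cre only, and Col9a1 had regions only upstream, 4549 bp from the start in AAV-Cre and 7192 bp in AAV-GFP. The AAV-GFP region of Col9a1 was 129 bp wide with a q-value of 0.98. Col12a1 was covered by 4009 bp in AAV-Cre and had an AAV-GFP region of 123 bp 399 bp away, with a q-value of 0.12. The calls at Col19a1, Col20a1 and Col22a1 were short, with the nearest AAV-Cre regions 625, 619 and 519 bp wide. At Col20a1 that region lay 9113 bp downstream of the start site, and in AAV-GFP the distance was 188932 bp at Col19a1 and 30038 bp at Col20a1. The AAV-GFP region of Col19a1, 124 bp wide with a q-value of 0.98, lay inside the gene body. Col22a1 was called in AAV-GFP within 15 kb through 1 region of 147 bp, 7262 bp away, with a q-value of 0.98.

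Network-forming, transmembrane and further collagens included the strongest region of all. Col8a2 (ENSMUSG00000056174.8, chromosome 4, 126286793 to 126314330, plus strand), a chain of Descemet's membrane of the cornea, had an AAV-Cre region of 5998 bp (126283161 to 126289158) with a fold of 13.6 and a −log10 p of 68.7, within the strongest 0.361% of its list. Its AAV-GFP region of 2375 bp (126285699 to 126288073) had a fold of 6.03 and a −log10 p of 23.5, within the strongest 1.14%. Col8a2 was thus the collagen gene with the strongest start-site region in both lists. Col26a1 followed in AAV-Cre, with 3342 bp, a fold of 12.7 and a −log10 p of 61.5, and its AAV-GFP region of 1622 bp had a −log10 p of 16.3. At the other end, the AAV-Cre region nearest to Col10a1 of growth-plate cartilage was 153169 bp away, and that nearest to Col28a1 393347 bp. In AAV-GFP these distances were 178333 and 499372 bp.

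The 4 transmembrane genes were all marked in AAV-Cre at 1 kb, and 3 of them in AAV-GFP, against 24.6% and 17.1% of all genes. Col25a1 had regions of 3325 bp (−log10 p of 29.4) and 1922 bp (−log10 p of 15.8) in AAV-Cre and AAV-GFP, and Col13a1 of 4060 and 1146 bp. Col23a1 was called in AAV-GFP through 1 region of 180 bp, 918 bp from the start site, with a q-value of 0.18. Col17a1, a component of hemidesmosomes, was called only in AAV-Cre, by the weakest start-site region of the 34 genes (−log10 p of 3.48, q-value of 0.023), and the distance to an AAV-GFP region was 62127 bp. Col8a1 and Col7a1, the collagen of anchoring fibrils, were called in both lists.

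Ranked within each list, start-site regions of collagen genes were stronger and wider than the list as a whole. Start-site regions of other genes were not ranked apart, so whether this is particular to collagen genes was not tested. The 36 AAV-Cre regions within 1 kb of a collagen start site were 2246 bp wide at the median against 753 bp in the whole list, and 22 of them (61.1%) were among the strongest 10.3% of the list by p-value. The 39 AAV-GFP regions were 454 bp wide at the median against 231 bp, and 13 (33.3%) were among the strongest 10.0%. All 39 overlapped an AAV-Cre region, as did 86.3% of the whole AAV-GFP list. Of the 36 AAV-Cre regions, 24 (66.7%) overlapped an AAV-GFP region, against 24.1% of the whole AAV-Cre list. The whole list also holds regions far from start sites. By gene, 26 of the 34 collagen genes called within 1 kb in AAV-Cre were also called in AAV-GFP. Among all genes these were 3488 of 5107. The median −log10 p over the genes called was 26.3 for fibrillar, 26.5 for type IV and 16.3 for other types in AAV-Cre, and 11.2, 10.4 and 8.04 in AAV-GFP. All 34 genes called in AAV-Cre had a region of q-value at most 0.05 within 1 kb, as did 97.9% of all genes called in that list. In AAV-GFP, 21 of the 26 genes called (80.8%) had one, close to the 84.0% of all genes called. The 5 that did not were Col12a1, Col15a1, Col16a1, Col1a2 and Col23a1.

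The mark was centred on the start site. At the start site itself, 69.0% of collagen genes lay inside an AAV-Cre region and 42.9% inside an AAV-GFP region, against 18.6% and 9.92% of all genes. The AAV-Cre share was highest at 0.5 kb downstream, with 73.8%, and was still 28.6% at 2.5 kb upstream and 31.0% at 2.5 kb downstream. In AAV-GFP it fell to 0% and 2.38% at the same distances. At 5 kb the AAV-Cre share of collagen genes was 7.14% upstream and 11.9% downstream, against 6.39% and 6.35% of all genes. With 42 genes, 7.14% is 3 genes and 11.9% is 5.

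**Figure D3:**
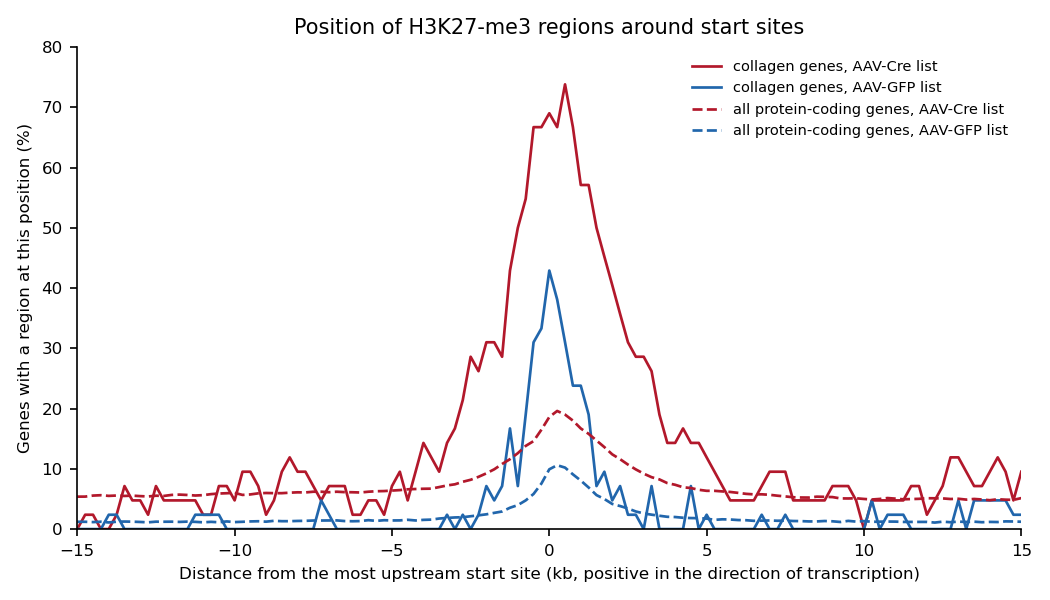
Percent of genes with a region at each position from 15 kb upstream to 15 kb downstream of the most upstream start site, in steps of 250 bp, for the 42 collagen genes (solid) and all 20720 protein-coding genes (dashed). The collagen curves peak at 73.8% (AAV-Cre, red) and 42.9% (AAV-GFP, blue), and the red curve is wider.

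Over gene bodies, a region was found at 36 collagen genes (85.7%) in AAV-Cre and 27 (64.3%) in AAV-GFP, against 29.8% and 21.4% of all genes. Only AAV-Cre did so at 9 (21.4%, all genes 9.10%) and only AAV-GFP at 0 (all genes 0.748%). Collagen genes are long, with a median body of 110850 bp against 17594 bp, and 26 of 42 were at least 58407 bp long, as were 4145 of all genes. Among those long genes the shares were 88.5% of collagen genes against 46.6% of all in AAV-Cre, and 69.2% against 38.0% in AAV-GFP, a comparison chosen after the data had been seen. At 1 kb from the start site the corresponding shares were 84.6% against 37.4% and 65.4% against 28.7%. Within this group of long genes the collagen share was thus still above that of all genes in both lists.

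By covered sequence, the comparison with all genes depended on the summary. The median share of the body inside regions was 2.11% for collagen genes in AAV-Cre and 0.308% in AAV-GFP, against 0% for all genes in each list. Summed over the bodies, AAV-Cre regions covered 197 kb of 4.84 Mb (4.06%, all genes 3.48%) and AAV-GFP regions 32.5 kb (0.671%, all genes 0.854%). In AAV-Cre, 36 genes had more of their body covered than in AAV-GFP, 0 had less and 6 had none in either list. The same split was not counted over all genes, whose covered share was also higher in AAV-Cre (3.48% against 0.854%). It is therefore not a result about collagen genes. By class, 4.69%, 3.38% and 3.97% of the sequence was covered in AAV-Cre for fibrillar, type IV and other types, and 1.03%, 0.546% and 0.577% in AAV-GFP. In AAV-Cre 55.6% of the covered collagen sequence lay more than 5 kb from a start site, and in AAV-GFP 24.5%. Exons made up 12.6% of the covered bases in AAV-Cre and 23.5% in AAV-GFP, against 5.49% of all bases of these bodies.

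A few genes held much of this sequence. Col26a1 had 29 AAV-Cre regions over its body, which covered 28757 bp (20.3%), and 27 of them lay more than 5 kb from a start site, whereas its 4 AAV-GFP regions covered 1.32%. Col16a1, a fibril-associated collagen, had 17 AAV-Cre regions that covered 22219 bp (43.2%), and 2 AAV-GFP regions that covered 0.589%. Of these AAV-Cre body regions, 3 of 29 and 2 of 17 overlapped an AAV-GFP region, against 42 of 172 over all collagen bodies and 24.1% of the whole list. Col8a2 was covered to 61.1% in AAV-Cre and 21.4% in AAV-GFP, and Col1a1 to 71.2% and 10.6%. Col13a1 came next by covered sequence, with 10635 bp, but this was 7.55% of its long body. The share of the body inside regions was above 10% at 8 genes in AAV-Cre and at 3 in AAV-GFP, which was not counted over all genes.

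**Figure D4:**
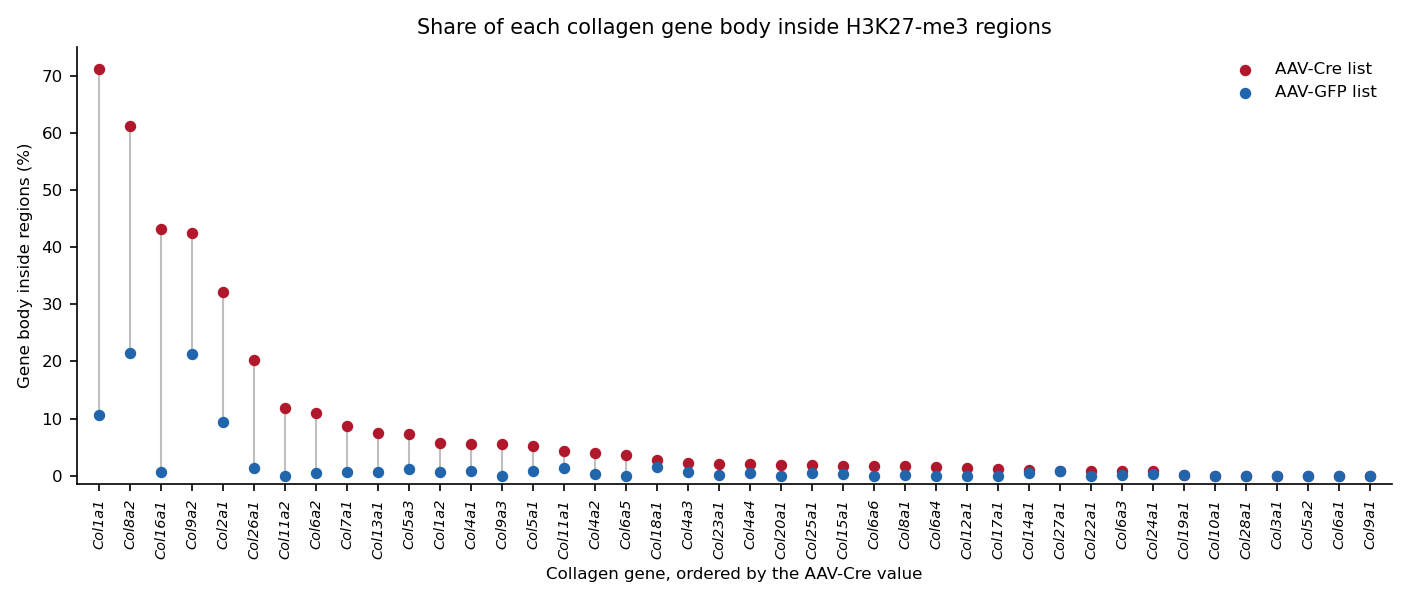
Percent of each collagen gene body inside regions of the AAV-Cre list (red) and the AAV-GFP list (blue), ordered by the AAV-Cre value. Col1a1 (71.2%) and Col8a2 (61.1%) stand highest in AAV-Cre, Col8a2 (21.4%) in AAV-GFP, and most genes are below 10% in both.

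CpG density around the start site, which the choice of genes did not use, differed between the collagen genes by call. Within 1 kb on either side of the most upstream start site, the median was 3.90 CpG per 100 bases for the 26 genes marked in both lists, 1.95 for the 8 only in AAV-Cre and 1.10 for the 8 in neither. The ranges were 2.05 to 7.70, 1.20 to 5.10 and 0.200 to 1.40. Collagen genes marked in both lists thus did not overlap with those in neither. Among all genes these groups did overlap, since genes in neither list reached 16.1 CpG per 100 bases. The median of all genes marked in both lists was 4.20. All 31 collagen genes with at least 1.5 CpG per 100 bases were marked in AAV-Cre, and 3 of the 11 below it. Among all genes the share marked in AAV-Cre was 816 of 6286 below 1.5, and 37.1%, 26.7% and 27.9% from 1.5 to 3, from 3 to 4.5 and from 4.5 upwards. In AAV-GFP 0 of 11, 11 of 13, 4 of 6 and 11 of 12 collagen genes were marked in these classes, against 4.68%, 21.7%, 21.7% and 23.6% of all genes. Genes at large in neither list had a median of 3.15 CpG per 100 bases, against the 1.10 of the collagen genes in neither. These values describe genes, which are not replicates, and were not tested.

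**Figure D5:**
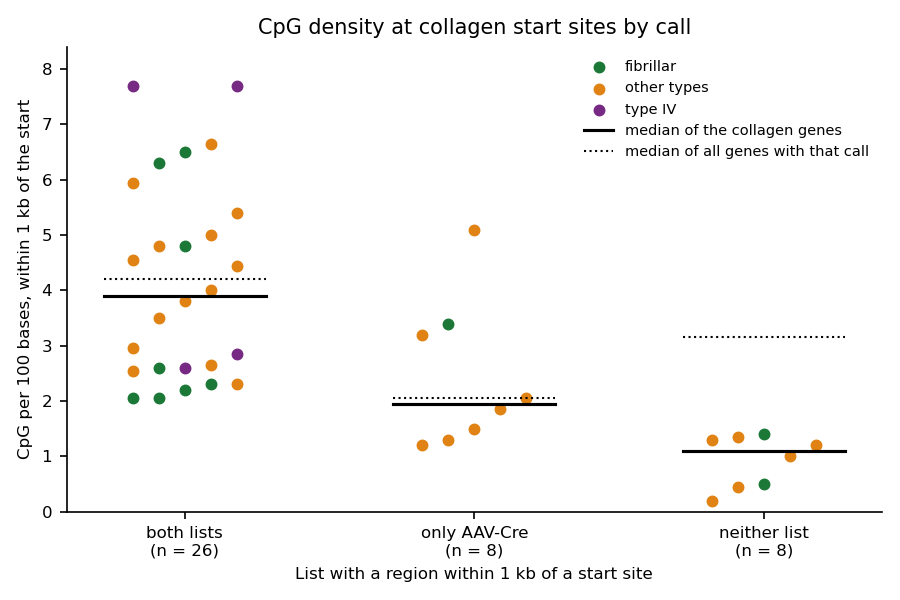
CpG dinucleotides per 100 bases within 1 kb of the most upstream start site for each of the 42 collagen genes (points, coloured by class), grouped by the list with a region within 1 kb of a start site. Solid lines are medians of the collagen genes (3.90, 1.95 and 1.10) and dotted lines medians of all genes with the same call (4.20, 2.05 and 3.15).

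Motifs were searched on both strands of the 250 bases before the start. The GC box GGGCGG was found in 20 of 36 collagen promoters (55.6%) against 44.6% of all 19167, and TATAAA in 5 (13.9%) against 11.2%. The motifs do not overlap each other. TATAAA was found at Col10a1, Col11a2, Col13a1, Col17a1 and Col3a1, genes with every kind of call.

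Genes that work with collagens were examined in the same way. Of 29 genes that modify, fold or cross-link collagen, 18 (62.1%) were marked within 1 kb in AAV-Cre and 13 (44.8%) in AAV-GFP, and 5 only in AAV-Cre, namely Crtap, Loxl4, P3h2, P4ha2 and Serpinh1. Of 15 partners in the basement membrane, 11 (73.3%) and 7 (46.7%) were marked, and only in AAV-Cre were Hspg2, which encodes perlecan, and the laminin genes Lama2, Lama4 and Lamb2. Collagen receptors were marked at 3 of 8 genes in both lists, the integrin genes Itga2 and Itga11 and the receptor kinase Ddr1. Of 8 leucine-rich proteoglycans that bind fibrils, Fmod was marked within 1 kb only in AAV-Cre and Dcn, which encodes decorin, only in AAV-GFP. The shares of processing genes and basement membrane partners were above those of all genes (24.6% and 17.1%), and that of the proteoglycans, 12.5% in each list, was below them. Genes only in AAV-Cre were 17.2% of processing genes and 26.7% of basement membrane partners, against 7.81% of all genes. Only AAV-GFP marked 0.294% of all genes. Among the genes named as only in AAV-Cre, Crtap, P3h2, Lama2 and Fmod had an AAV-GFP region within 15 kb or over the body.

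Marker genes of liver cells were examined beside these. None of 10 hepatocyte markers, among them Alb and Hnf4a, had a region within 15 kb or over the body in either list. Of all genes, 43.1% in AAV-Cre and 29.0% in AAV-GFP had a region within 15 kb. Of 10 markers of stellate cells, which make most collagen in liver, 9 were marked within 1 kb in AAV-Cre and 8 in AAV-GFP. Within 1 kb the shares of all genes were 24.6% and 17.1%. Ecm1 was marked in neither list and Colec11 only in AAV-Cre. The lists hold no expression values, and which cells of the liver carried the mark at collagen genes was not tested.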

How the data were processed

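The authors carried out ChIP-seq for H3K27-me3 on liver of JMJD3-floxed mice given either virus, with 2 libraries of H3K27-me3 and 2 of input per group. Reads were processed with the AQUAS histone pipeline with a pooled input control. Per the submitters' processing notes, BWA 0.7.13, SAMtools 1.2 and Picard 1.126 were used with the build mm10, and MACS called the peaks, of which those overlapping across replicates were kept. The deposited lists give for each peak a fold enrichment (a ratio to the local input), a p-value and a q-value, the last ones as −log10. They give 1 list per group, no read counts and no value per replicate, so depth is unknown and no test between groups was made.

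Genes, exons and start sites of basic protein-coding transcripts were taken from GENCODE M21 on GRCm38, the assembly of mm10. A gene was called marked when at least 1 bp of a region lay within 1 or 15 kb of a start site or over the body. All 42 members were accounted for. Described with their regions were the 12 members with the highest −log10 p within 1 kb in AAV-GFP, those whose call within 15 kb differed between lists, the 5 with the most covered body in AAV-Cre, Col1a1, Col1a2, Col3a1, Col4a1 and Col4a2, and the 3 farthest from any region. The members and lists were chosen with earlier results of these data known. Further members were described after their values were seen. The proteoglycan gene Bgn is not on chromosomes 1 to 19 and was not counted. Counts are set beside those of all 20720 genes, with no set test. Python 3.11.15 and matplotlib 3.10.9 were used. The functions were tested on simulated data, where 100% of distances, counts and covered bases for 500 genes and 400 regions equalled a direct search. Alternatives were stricter q-values and p-values, equal numbers of peaks, a minimum width, other windows, 1 start site per gene, merging, and minimum overlaps with the body.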

Additional observations from a re-analysis of the deposited data

How the results depend on the processing

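The lists pool both replicates, so leaving out each replicate could not be run. No paired analysis was possible because each list merges its replicates into single regions. Of 104 values recomputed under the alternatives, 77 stayed within 1.5 times the main count or within the interval of the main share, 27 moved and 0 reversed. Some of the 77 could not change, so the tally does not measure stability. Equal numbers of peaks kept the whole AAV-GFP list, and the minimum width left the AAV-Cre counts at 34, 38 and 36 genes. The counts of collagen genes marked within 1 kb and 15 kb in each list, and those over the body in AAV-Cre, were among the values that stayed. In AAV-GFP they still fell at stricter settings. Within 15 kb, 29 genes (all genes 29.0%) became 22 (22.3%) with q-values of at most 0.05. A width of at least 300 bp left 20 (20.8%). Within 1 kb, 26 genes (17.1%) became 21 (14.4%) and 20 (14.0%) at these settings. With the 34307 top peaks of each list, 32 collagen genes were marked within 1 kb in AAV-Cre and 26 in AAV-GFP, against 22.4% and 17.1% of all genes.

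The same filter on q-value or p-value in both lists raised the counts found only in AAV-Cre, for collagen genes and for all genes. So did a width of at least 300 bp, and equal numbers of peaks lowered them. The width changed gene calls in AAV-GFP alone, where genes called within 1 kb fell from 3549 to 2891, while AAV-Cre kept 5107. Equal numbers removed peaks from AAV-Cre alone. The direction of both changes was thus fixed beforehand. Within 1 kb that count was 8 (all genes 7.81%), and it became 13 (9.82%) with q-values of at most 0.05, 14 (10.7%) at a width of at least 300 bp and 6 (5.70%) with equal numbers of peaks. Within 15 kb it was 9 (15.3%), and became 15 (4125 of all 20720 genes) and 14 (4138) with q-values of at most 0.05 and 0.01, 18 (22.3%) at that width, 6 (10.3%) with equal numbers and 5 (17.7%) with a window of 50 kb. With equal numbers of peaks 1 gene, Col6a4, was marked within 15 kb only in AAV-GFP. Over the body the count only in AAV-Cre was 9 (9.10%), and became 16 (12.2%) and 17 (12.7%) at the q-values, 17 (13.5%) at the width, 15 (10.7%) at a −log10 p of at least 5, 7 (6.40%) with equal numbers, and 19 and 22 with at least 500 bp and at least 1% covered (12.1% of all genes in each). The last settings left 17 and 8 genes in AAV-GFP.

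The covered share of collagen bodies, 4.06% in AAV-Cre and 0.671% in AAV-GFP, became 3.83% and 0.519% with q-values of at most 0.05, 3.50% and 0.452% at 0.01 and 2.86% and 0.445% at the −log10 p. It was 4.54% and 0.900% with peaks merged within 1 kb and 6.30% and 1.20% within 5 kb. Equal numbers of peaks gave 3.16% in AAV-Cre, and the width 0.498% in AAV-GFP. Merging adds the gaps between peaks and the other settings remove peaks by construction. Depth limits the calls in an unknown way.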
